A study of Mus musculus with 8 samples.

Results

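Cholesterol homeostasis was followed through 30 genes for the synthesis, uptake, control, efflux and storage of cholesterol, each matched by symbol to 1 row of the deposited table of 22274 genes. All 30 were expressed above the count filter and lie among the 13702 genes tested. They comprise 7 enzymes that lead to farnesyl diphosphate, 11 enzymes from squalene on, 5 genes that control the pathway, 3 for uptake and lysosomal release, 2 exporters, and 2 for transfer and esterification inside the cell. They were measured in 8 RNA-seq libraries of the mouse kidney line RFB, given as fibroblasts, 4 that had received an adenovirus carrying Cre (ad-CRE) and 4 that had received an adenovirus carrying GFP (ad-GFP). Every culture of both groups was also given TGF-β, a growth factor known for inducing matrix genes in fibroblasts, and no library without TGF-β or without virus was analysed here. Cre is a recombinase that removes DNA between loxP sites. The labels do not describe the floxed allele, the age of the source animals or whether the line is 1 clone, nor do they say whether replicates came from separate cultures. The p-values therefore measure library-to-library spread, part or all of which may be technical.

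The series design names Suv39h1, a histone H3 lysine 9 methyltransferase, as the gene knocked down. Suv39h1 was at 32.5 ± 0.795 CPM (read counts scaled to library size) in ad-CRE and 41.5 ± 3.16 CPM in ad-GFP (SD, n = 4 each), a log2 fold change of −0.35. The gene for the chromatin remodelling ATPase BRG1, Smarca4, fell to 34.3 ± 3.2 CPM in ad-CRE, against 288 ± 11.1 CPM in ad-GFP (SD, n = 4 each), a log2 fold change of −3.07. The deposited totals do not show whether exons were lost, so the 2 groups are named here by their virus. Total counts were 17572152 to 22297598 in the ad-CRE and 15998257 to 20920828 in the ad-GFP libraries. Of the markers for the labelled cell type, 12 fibroblast genes summed to 817 to 874 CPM in ad-CRE and 1897 to 2000 CPM in ad-GFP, with Lum and Fap under 1 CPM in both groups. Most of that sum is Vim (693 CPM in ad-CRE and 1614 CPM in ad-GFP), so it says little about the other fibroblast genes. Of the 10 fibroblast genes tested, 9 fell and Pdgfra rose. Over all genes tested, 36.8% rose and 36.3% fell at an edgeR adjusted p below 0.05. The 10 tubular epithelial markers summed to 3933 to 4040 CPM in ad-CRE and 1841 to 2022 CPM in ad-GFP, with Slc34a1 and Aqp2 under 1 CPM. Most of that sum is keratin Krt8 (1983 CPM in ad-CRE and 745 CPM in ad-GFP), Krt18 and Cdh1, and of the 8 tested 6 rose while Cdh16 and Lrp2 fell by 0.66 and 0.55 on the log2 scale. The 5 endothelial markers summed to 58.9 to 66.5 CPM in ad-CRE and 129 to 143 CPM in ad-GFP, and the 6 macrophage markers to 155 to 163 CPM in ad-CRE and 217 to 249 CPM in ad-GFP. The 4 adipocyte markers were each under 1 CPM. All of these sums except the adipocyte one differed with the group, and their part in the differences given here was not tested. In bulk RNA, fewer cells of a type and less RNA per cell cannot be told apart.

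Cells make cholesterol from acetyl-CoA through mevalonate, farnesyl diphosphate, squalene and lanosterol. When sterols are scarce, SCAP escorts the membrane-bound factors SREBP1 and SREBP2 from the endoplasmic reticulum to the Golgi, where cleavage frees the part that switches on the synthesis genes, and INSIG1 and INSIG2 hold SCAP back when sterols are plentiful. Oxysterols activate the nuclear receptor LXR, which switches on export through ABCA1 and ABCG1 and the removal of lipoprotein receptors through IDOL, the product of Mylip.

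The promoters are shown for description only, with the bases before the start site as RefSeq gives them for GRCm38.p6. Gene positions given further on are those of GENCODE M21 on GRCm38, whose starts need not be those of RefSeq. A promoter window was listed for 24 of the 30 genes, and not for Fdps, Fdft1, Sqle, Npc1, Abcg1 or Stard4. Capitals mark the sterol regulatory element core TCACNCCAC, the NF-Y box CCAAT, the Sp1 box GGGCGG and the E-box CACGTG, each on either strand, and none of these matches overlap one another in the stretches printed. Hmgcs1 was taken as the member with an exact match to the sterol element core and Abca1 as the exporter. Tm7sf2, Mvd, Srebf2 and Insig1 were chosen after their values were seen, as the largest rises with a window and as control genes that moved in opposite directions. By GENCODE positions the whole Tm7sf2 stretch is exon sequence of Tm7sf2 (chr19:6062821-6068373) and of Vps51 on the same strand (chr19:6067842-6077231). It therefore need not be upstream of either gene. The Srebf2 and Insig1 stretches run in part past the GENCODE starts of these genes.
Hmgcs1, chr13:119690101-119690350, plus strand: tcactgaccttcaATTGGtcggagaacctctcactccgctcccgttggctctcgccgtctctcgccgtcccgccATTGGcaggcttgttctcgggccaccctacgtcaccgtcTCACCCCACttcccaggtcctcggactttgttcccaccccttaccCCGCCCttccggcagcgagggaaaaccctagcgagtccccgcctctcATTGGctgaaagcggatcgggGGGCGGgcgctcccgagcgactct
Tm7sf2, chr19:6067851-6068100, minus strand: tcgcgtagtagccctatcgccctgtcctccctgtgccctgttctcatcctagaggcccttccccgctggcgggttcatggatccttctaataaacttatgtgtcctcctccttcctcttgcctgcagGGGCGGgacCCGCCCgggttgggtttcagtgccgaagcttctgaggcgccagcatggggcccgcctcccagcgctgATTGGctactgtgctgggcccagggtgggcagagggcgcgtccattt
Mvd, chr8:122443423-122443672, minus strand: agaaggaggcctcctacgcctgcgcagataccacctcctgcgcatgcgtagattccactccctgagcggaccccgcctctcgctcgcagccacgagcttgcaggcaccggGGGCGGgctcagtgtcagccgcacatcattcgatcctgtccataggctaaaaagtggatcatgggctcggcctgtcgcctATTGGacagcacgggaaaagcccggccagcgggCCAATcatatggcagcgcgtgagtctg
Srebf2, chr15:82147019-82147268, plus strand: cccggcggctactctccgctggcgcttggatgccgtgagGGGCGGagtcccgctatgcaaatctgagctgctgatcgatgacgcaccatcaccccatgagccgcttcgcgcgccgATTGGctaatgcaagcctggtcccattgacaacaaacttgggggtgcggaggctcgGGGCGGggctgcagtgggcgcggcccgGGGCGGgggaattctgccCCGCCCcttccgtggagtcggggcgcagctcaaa
Insig1, chr5:28071162-28071411, plus strand: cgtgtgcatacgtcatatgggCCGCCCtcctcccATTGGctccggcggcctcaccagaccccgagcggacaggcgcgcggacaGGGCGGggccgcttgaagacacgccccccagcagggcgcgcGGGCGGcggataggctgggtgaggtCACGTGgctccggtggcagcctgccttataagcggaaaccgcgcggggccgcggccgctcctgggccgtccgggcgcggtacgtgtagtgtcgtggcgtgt
Abca1, chr4:53159896-53160145, minus strand: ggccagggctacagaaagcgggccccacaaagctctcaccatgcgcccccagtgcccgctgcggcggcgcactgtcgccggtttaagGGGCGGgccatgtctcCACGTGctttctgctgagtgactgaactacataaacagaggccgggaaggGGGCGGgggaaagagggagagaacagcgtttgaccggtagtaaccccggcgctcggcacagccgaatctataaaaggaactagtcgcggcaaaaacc

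An exact match to the sterol element core was found in the window (250 bases before to 50 after the start) of Hmgcs1 only. That was 1 of the 18 windows of the 15 synthesis enzymes with a window (5.56%), against 1.11% of the windows of genes tested. Variants of the core were not searched, such as the TCACCCCAT in the Srebf2 stretch, so genes without an exact match may still hold a sterol element. An NF-Y box was found for 14 of these 15 enzymes, in 77.8% of their windows against 37.4% of the windows of genes tested. Acat2 was the enzyme with a window and no such box. A Sp1 box stood in 83.3% of the enzymes' windows and 61.0% of those of genes tested, and an E-box in 16.7% and 9.49%. The DR4 element, a pair of AGGTCA half-sites 4 bases apart that LXR binds with RXR, was searched with exact half-sites only. It was in 0 windows of the 24 genes that have one, Abcg1 not among them. It was also in 0 of the 13851 windows of genes tested and in 0.0152% of all 32851 windows of the table. A pattern this rare cannot tell the members from other genes, and its absence does not show that Abca1 lacks a site for LXR. Ebp, which did not pass the test of expression, holds NF-Y boxes as well, as do Insig1 and Srebf1, which fell. A match is a description of the letters only, and binding was not measured. Whether the motifs bear on the changes in expression was not tested.

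Genes of cholesterol synthesis were mostly higher in ad-CRE. Of the 18 enzymes, 17 rose, 0 fell and 1 did not pass, with calls made by edgeR at an adjusted p below 0.05 over all genes tested. Their median log2 fold change was 0.73, against 0.00 over all genes tested, of which 36.8% rose and 36.3% fell, 73.1% in either direction. For the same 17 enzymes the lowest ad-CRE value exceeded the highest ad-GFP value. Of all genes tested, 33.4% showed this, 32.8% the opposite order, and 66.2% either one. The summed level of the 18 enzymes was 1262, 1251, 1263 and 1220 CPM in ad-CRE replicates 1 to 4, and 822, 841, 825 and 804 CPM in ad-GFP replicates 1 to 4, a ratio of 1.52. At least 0.5 log2 units were gained by 12 of the enzymes, where 15.2% of genes tested rose that far and 18.7% fell that far.

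**Figure D1:**
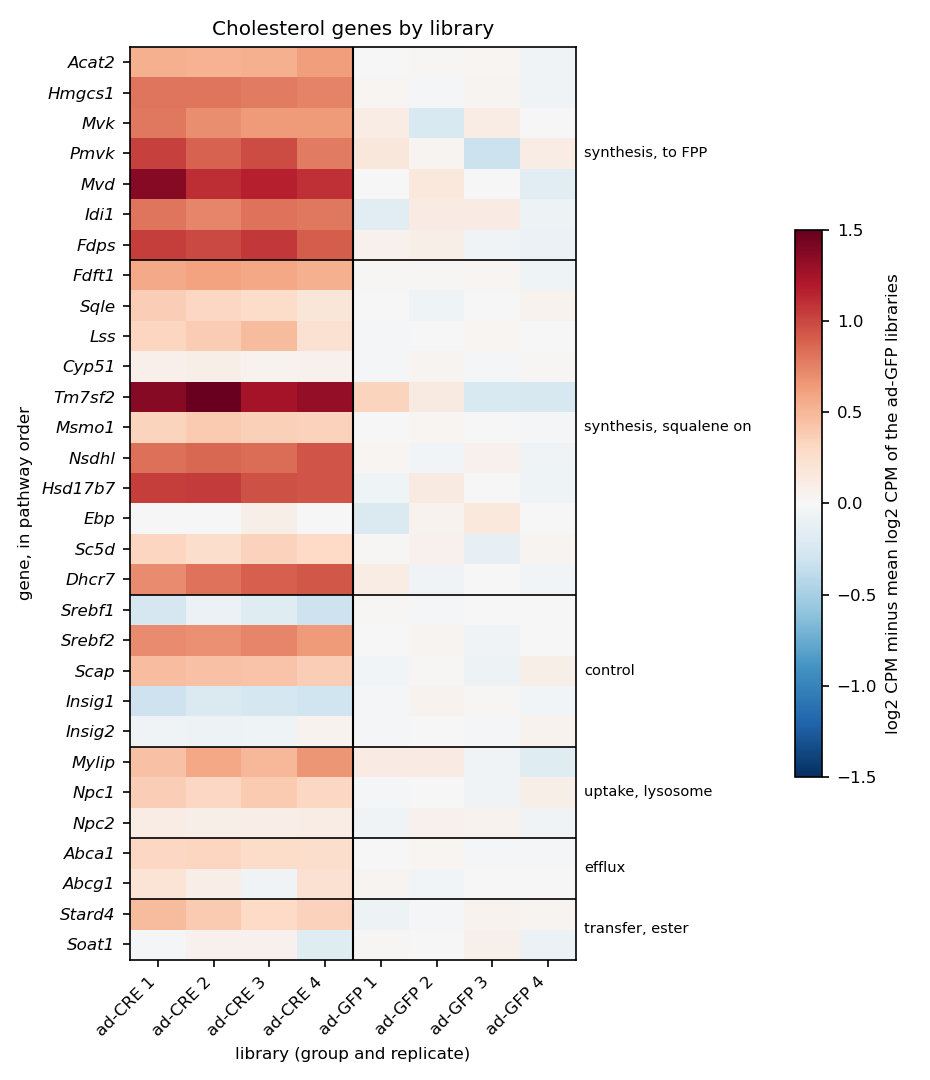
Heat map of the 30 genes (rows, in pathway order) in the 8 libraries (columns), coloured by log2 CPM minus the mean of the ad-GFP libraries. The 4 ad-CRE columns are red through most synthesis rows and for Srebf2, pale for Cyp51, Ebp, Insig2, Npc2 and Soat1, and blue for Srebf1 and Insig1.

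In the early arm 7 of 7 enzymes were higher, with log2 fold changes of 0.55 to 1.18 (median 0.78), where 36.8% of all genes tested rose and 36.3% fell. Mvd (ENSMUSG00000006517, chr8:122433601-122443422, minus strand), mevalonate diphosphate decarboxylase, which makes isopentenyl diphosphate, had 16.3, 13.6, 14.3 and 13.6 CPM in ad-CRE replicates 1 to 4, against 6.39, 7.09, 6.34 and 5.65 CPM in ad-GFP replicates 1 to 4. The ad-CRE libraries all lay well above the ad-GFP libraries, and the gene rose 2.27-fold (1.18 in log2, SE 0.094, edgeR adjusted p = 1.65e-12).

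Fdps (ENSMUSG00000059743, chr3:89093588-89101959, minus strand), farnesyl diphosphate synthase, at the branch to cholesterol, dolichol, ubiquinone and prenylated proteins, had 227, 219, 232 and 208 CPM in ad-CRE and 115, 118, 107 and 104 CPM in ad-GFP. The lowest ad-CRE library had far more than the highest ad-GFP library, a 1.996-fold rise (0.997 in log2, SE 0.037, edgeR adjusted p = 1.29e-20). Fdps exons share 1124 bases with Gm43738 on the same strand, which had 0.0771 CPM in ad-CRE and 0.0355 CPM in ad-GFP. How reads in shared exons were assigned is not given. Pmvk, phosphomevalonate kinase, had 9.82, 8.90, 9.53 and 8.29 CPM in ad-CRE and 5.44, 4.95, 3.86 and 5.22 CPM in ad-GFP. It is among the least abundant of these enzymes and rose by 0.91 (SE 0.114, edgeR adjusted p = 2.84e-08), with no overlap between groups. Hmgcs1, the cytosolic HMG-CoA synthase whose promoter carries the exact sterol element core shown above, had 215, 215, 212 and 206 CPM in ad-CRE and 125, 122, 126 and 119 CPM in ad-GFP. The replicates lay close together in both groups, and the rise was 1.72-fold (log2 fold change 0.78, SE 0.03, edgeR adjusted p = 1.87e-20).

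The other early enzymes rose as well. Idi1, isopentenyl diphosphate isomerase, rose by 0.78, to 112 ± 2.62 CPM in ad-CRE, against 65.2 ± 6.42 CPM in ad-GFP (SD, n = 4 each). Mvk, mevalonate kinase, rose by 0.68, and Acat2, the cytosolic thiolase that makes acetoacetyl-CoA, by 0.55. Reads of Acat2 could be shared with its near-identical relative Acat3, which had only 0.703 CPM in ad-CRE and 0.808 CPM in ad-GFP.

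**Figure D2:**
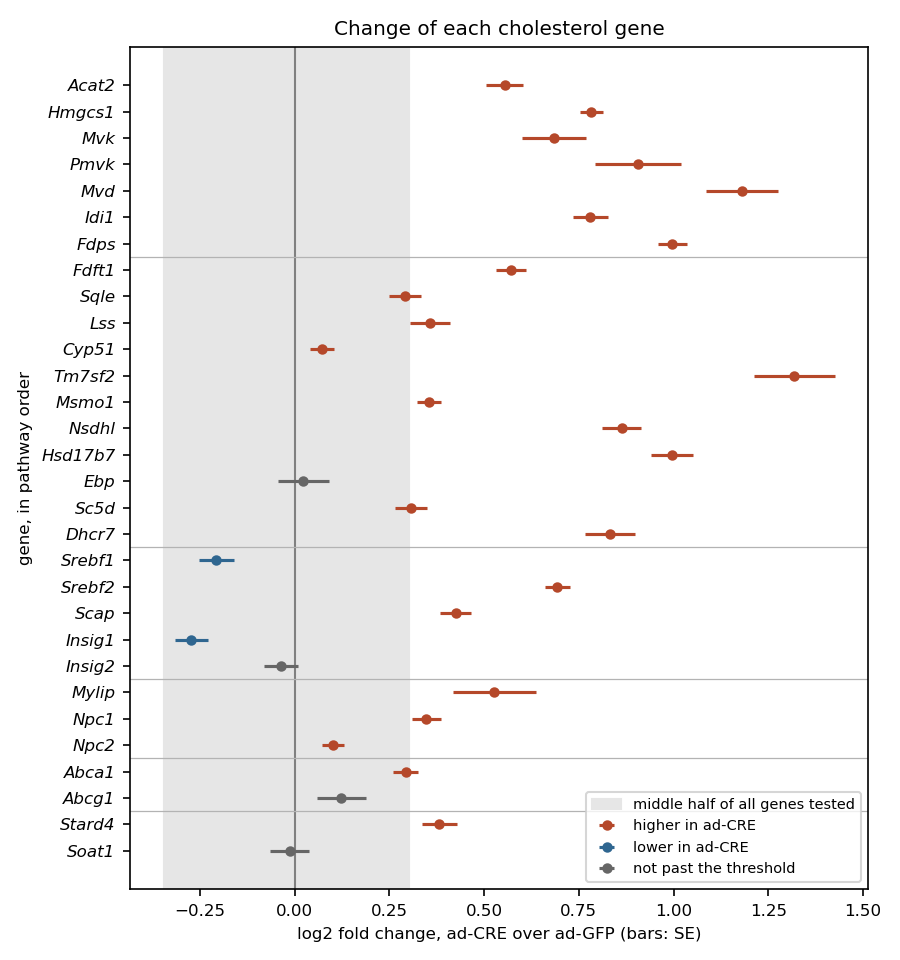
Log2 fold change (ad-CRE over ad-GFP) of each of the 30 genes, with its SE as bars, and the middle range of all genes tested, from the lower to the upper quartile (−0.35 to 0.30), in grey. Most synthesis enzymes lie right of the grey band, led by Tm7sf2 at 1.32, while Srebf1 and Insig1 lie left of 0.

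From squalene on, 10 of 11 enzymes rose, where 36.8% of all genes tested rose and 36.3% fell. The changes were uneven, with log2 fold changes of 0.02 to 1.32 (median 0.36). Tm7sf2 (ENSMUSG00000024799, chr19:6062821-6068373, minus strand), a sterol C14 reductase, had 14.4, 15.7, 13.3 and 13.9 CPM in ad-CRE, against 7.05, 6.12, 4.78 and 4.72 CPM in ad-GFP. Every ad-CRE library was above every ad-GFP library, and this was the largest change among the 30 genes (2.49-fold, log2 fold change 1.32, SE 0.106, edgeR adjusted p = 2.09e-12). Its exons share 532 bases with Vps51, a trafficking gene on the same strand that rose by 0.36. Of the 30 genes, 8 share exon bases with a gene on the opposite strand and 3 with a gene on the same strand.

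The sterol ring demethylation enzymes Hsd17b7 and Nsdhl followed. Hsd17b7, a 3-ketosteroid reductase, had 40.9, 41.3, 38.7 and 38.2 CPM in ad-CRE and 19.1, 21.8, 19.8 and 19.1 CPM in ad-GFP, a rise of 0.996 (SE 0.056, edgeR adjusted p = 3.21e-16). Nsdhl, a C4 sterol decarboxylase encoded on the X chromosome, had 40.2, 41.2, 40.6 and 43.8 CPM in ad-CRE and 23.2, 22.0, 23.7 and 21.9 CPM in ad-GFP, a rise of 0.86 (SE 0.052, edgeR adjusted p = 1.93e-15). Both groups were tight and far apart for each gene.

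Dhcr7, which makes cholesterol from 7-dehydrocholesterol, had 23.6, 25.5, 27.1 and 27.5 CPM in ad-CRE and 15.6, 13.9, 14.4 and 14.0 CPM in ad-GFP. The groups did not overlap, and the gene rose by 0.83 (SE 0.066, edgeR adjusted p = 1.36e-12). On the deposited FPKM scale, read counts scaled by gene length and library size, the ratio of group means was smaller, 0.56 in log2. The length that a library's count and FPKM imply for Dhcr7 was 1899 to 2216 bases in ad-CRE and 1236 to 2182 bases in ad-GFP, lowest in ad-GFP replicate 3. For 16 of the 30 genes this length differed by less than 5% across libraries, whereas for Dhcr7 and Abcg1 it differed 1.79-fold and 1.63-fold.

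Smaller rises were seen at the steps between. Fdft1, squalene synthase, rose by 0.57, although its exons share 774 bases with Ctsb on the opposite strand, which fell by 0.44 on the log2 scale and was more abundant, and whether strand was used in counting is not given. Lss, lanosterol synthase, and Msmo1, a C4 methylsterol oxidase, rose by 0.36 and 0.35, Sc5d by 0.31, and Sqle, squalene epoxidase, a rate-limiting step of this arm, by 0.29. Cyp51, lanosterol 14-demethylase, had 112, 112, 109 and 110 CPM in ad-CRE and 104, 108, 103 and 107 CPM in ad-GFP. The groups lie close together without overlapping, and the log2 fold change of 0.07 passed narrowly (SE 0.032, edgeR adjusted p = 0.047), with 13 of 17 other settings ending the call. Ebp, the sterol isomerase also known as a binding protein of emopamil, had 20.9, 20.7, 22.1 and 20.6 CPM in ad-CRE and 17.9, 21.5, 23.1 and 20.9 CPM in ad-GFP. The groups overlapped, and the gene did not pass (log2 fold change 0.02, SE 0.067, edgeR adjusted p = 0.768).

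Levels between enzymes were compared on the deposited FPKM values, which are scaled by length. Fdps was the most abundant of the 30 genes, with 180 ± 8.71 FPKM in ad-CRE and 90.9 ± 5.89 FPKM in ad-GFP (SD, n = 4 each). Among enzymes it was followed by Hmgcs1 (65.2 ± 1.49 FPKM) and Msmo1 (56.9 ± 0.946 FPKM) in ad-CRE, and by Msmo1 (45.3 ± 0.83 FPKM) and Hmgcs1 (39.1 ± 1.49 FPKM) in ad-GFP, so that these neighbours changed order. Mvd, Pmvk, Tm7sf2 and Hsd17b7, which include the largest rises, were the least abundant enzymes in ad-GFP, with 3.66 ± 0.343, 4.12 ± 0.588, 4.53 ± 1.17 and 4.57 ± 0.257 FPKM (SD, n = 4). Mvd, Pmvk and Tm7sf2 overlapped in ad-GFP, as did Pmvk, Tm7sf2 and Hsd17b7, so neighbours in this order do not differ beyond their spread. In ad-CRE the lowest enzymes were Pmvk at 7.58 ± 0.572, Lss at 7.95 ± 0.576 and Mvd at 8.16 ± 0.731 FPKM, which lay within their spread of one another.

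**Figure D3:**
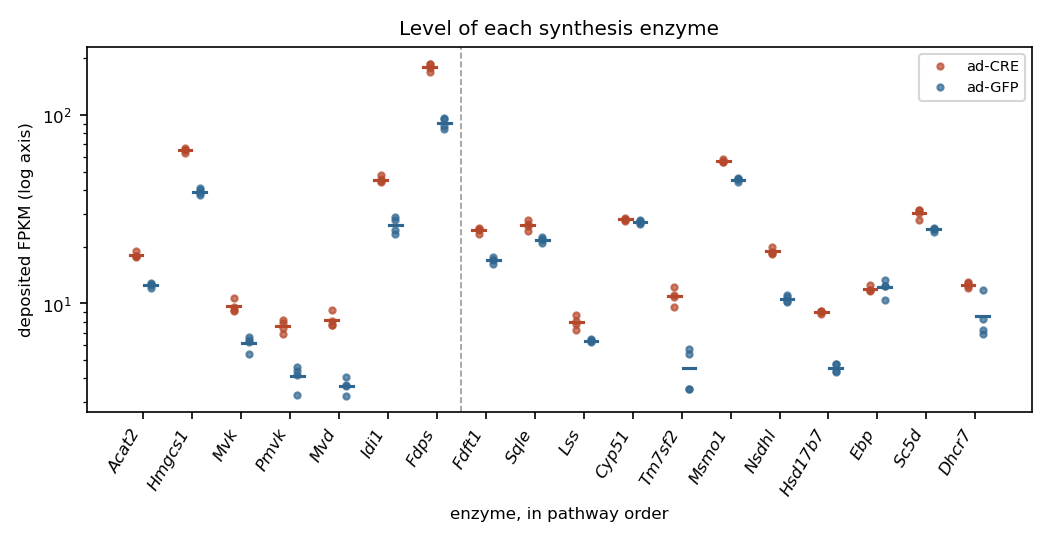
Deposited FPKM (log axis) of the 18 synthesis enzymes in pathway order, ad-CRE to the left of ad-GFP for each gene, with points for libraries and bars for means. Fdps stands highest in both groups, and the groups are widely apart for Mvd, Tm7sf2 and Hsd17b7 but coincide for Cyp51 and Ebp.

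Of the 5 control genes, 2 rose, 2 fell and 1 did not pass, a split close to that of all genes tested (36.8% higher, 36.3% lower). Srebf2 (ENSMUSG00000022463, chr15:82147181-82205379, plus strand), the gene for SREBP2, the main activator of cholesterol synthesis genes, had 170, 168, 174 and 162 CPM in ad-CRE, against 104, 108, 101 and 105 CPM in ad-GFP. The groups were far apart, and the gene rose 1.62-fold (log2 fold change 0.69, SE 0.032, edgeR adjusted p = 2.61e-18). Scap, the escort of the SREBPs, had 80.2, 78.6, 78.0 and 75.03 CPM in ad-CRE and 56.6, 59.0, 55.3 and 61.8 CPM in ad-GFP, which do not overlap, a rise of 0.42 (SE 0.041, edgeR adjusted p = 1.15e-10).

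Srebf1 (ENSMUSG00000020538, chr11:60199089-60222581, minus strand), the gene for SREBP1, which acts mainly on fatty acid synthesis, went the other way. It had 44.0, 49.5, 46.4 and 42.4 CPM in ad-CRE and 53.4, 51.8, 52.5 and 52.8 CPM in ad-GFP, with every ad-CRE library lower, and fell by 0.21 on the log2 scale (SE 0.047, edgeR adjusted p = 0.000234). Gene totals do not tell its isoforms SREBP1a and SREBP1c apart. Insig1 (ENSMUSG00000045294, chr5:28071363-28078662, plus strand), itself a textbook target of SREBP, had 44.0, 47.0, 45.4 and 44.1 CPM in ad-CRE and 53.6, 56.3, 55.2 and 52.8 CPM in ad-GFP. It fell by 0.27 on the log2 scale (SE 0.043, edgeR adjusted p = 1.79e-06), with no overlap, in the same libraries in which the enzymes rose. Insig2 had 44.2, 43.6, 43.7 and 47.3 CPM in ad-CRE and 45.1, 45.5, 45.1 and 47.5 CPM in ad-GFP, which overlap, and it did not pass (log2 fold change −0.04, edgeR adjusted p = 0.486).

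Ratios of paired genes were compared within libraries, where scaling cancels. The log2 ratio of Srebf2 to Srebf1 reads was 1.95, 1.76, 1.90 and 1.93 in ad-CRE and 0.96, 1.05, 0.94 and 0.99 in ad-GFP, a difference of 0.90. That of Insig1 to Insig2 was −0.01, 0.11, 0.05 and −0.10 in ad-CRE and 0.25, 0.31, 0.29 and 0.15 in ad-GFP, a difference of −0.24. Neither pair of groups overlapped, and both differences had the smallest p that 70 splits of 4 against 4 libraries can give (exact two-sided permutation test, p = 0.0286, adjusted p = 0.0429 over 3 ratios). Every ad-CRE library was higher for Srebf2 and lower for Srebf1, so their ratio had to separate. Its p adds nothing to the calls on these genes, and the size of the difference is what the ratio gives. On FPKM values the difference was 0.92 for Srebf2 to Srebf1, again with the smallest possible p of 0.0286 (exact permutation test), and the adjustment over 3 ratios, of which the others had larger p there, gave 0.0857. For Insig1 to Insig2 it was −0.15 and did not pass (exact permutation test, adjusted p = 0.429). The length that count and FPKM imply for Insig2 was 1711 to 2053 bases in ad-CRE and 1660 to 1952 bases in ad-GFP. For Insig1 it was 2696 to 2698 bases in ad-CRE and 2697 to 2698 bases in ad-GFP. Their FPKM ratio thus also varies with the length used for Insig2. The Abca1 to Abcg1 ratio was 2.21, 2.33, 2.44 and 2.15 in ad-CRE and 2.07, 2.19, 2.10 and 2.08 in ad-GFP, which overlap, and it did not pass (difference 0.17, exact permutation test, adjusted p = 0.0571).

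**Figure D4:**
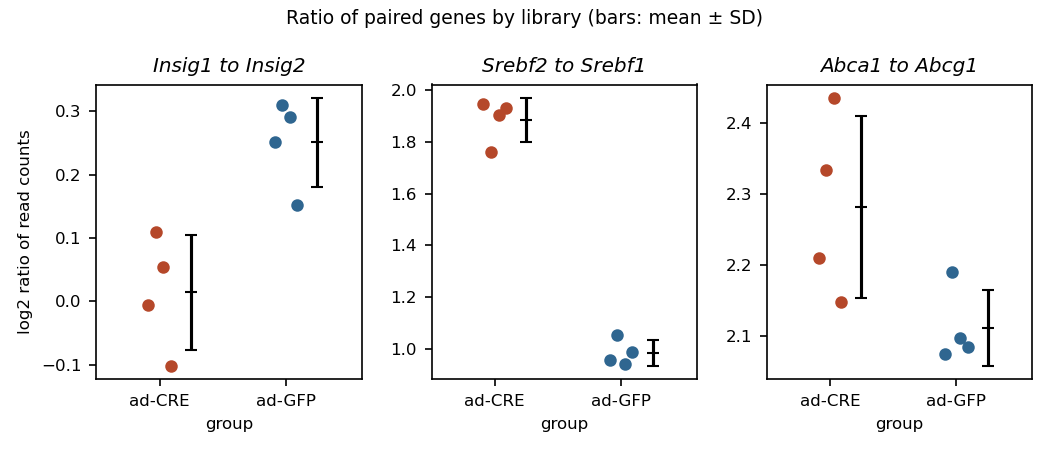
Log2 ratio of read counts of 3 gene pairs in each library, ad-CRE to the left of ad-GFP, with the mean ± SD (n = 4) beside the points. Srebf2 to Srebf1 is about 1.89 in ad-CRE and 0.98 in ad-GFP with no overlap, Insig1 to Insig2 is lower in ad-CRE, and Abca1 to Abcg1 overlaps between groups.

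The 3 genes listed under uptake and lysosomal release rose by 0.10 to 0.53, where 36.8% of all genes tested rose and 36.3% fell. Mylip acts in the removal of lipoprotein receptors, and Npc1 and Npc2 act in lysosomal release. Mylip, the gene for the ubiquitin ligase IDOL, had 7.56, 8.33, 7.87 and 8.81 CPM in ad-CRE and 6.06, 6.07, 5.36 and 4.91 CPM in ad-GFP, with no overlap, a rise of 0.53 (SE 0.109, edgeR adjusted p = 8.15e-05). It was the least abundant of the 30 genes in FPKM. Npc1, the membrane protein that passes cholesterol out of lysosomes, had 95.9, 92.0, 97.2 and 92.1 CPM in ad-CRE and 72.7, 74.0, 71.4 and 78.9 CPM in ad-GFP, a rise of 0.35 (SE 0.038, edgeR adjusted p = 1.49e-09). Its soluble partner Npc2 had 258, 255, 256 and 260 CPM in ad-CRE and 232, 251, 248 and 231 CPM in ad-GFP. That rise was only 0.10 (SE 0.029, edgeR adjusted p = 0.00299), and it did not pass on either FPKM scale (limma-trend adjusted p = 0.0633 with 1 added and 0.0644 with 0.1 added).

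Of the exporters, Abca1 (ENSMUSG00000015243, chr4:53030787-53159895, minus strand), which loads cholesterol onto apolipoproteins, had 103, 104, 101 and 99.9 CPM in ad-CRE and 83.2, 84.9, 82.3 and 81.7 CPM in ad-GFP. Its groups were tight and did not overlap, and it rose by 0.29 (SE 0.034, edgeR adjusted p = 4.95e-09). Abcg1, which exports cholesterol to lipoprotein particles, had 22.2, 20.6, 18.6 and 22.5 CPM in ad-CRE and 19.7, 18.6, 19.2 and 19.3 CPM in ad-GFP. These overlap, and it did not pass (log2 fold change 0.12, SE 0.065, edgeR adjusted p = 0.0903), although it did without ad-CRE replicate 3 (0.18, edgeR adjusted p = 0.0165).

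Stard4, which carries cholesterol between membranes, had 62.5, 58.8, 55.5 and 57.0 CPM in ad-CRE and 42.7, 44.1, 46.8 and 46.3 CPM in ad-GFP, with no overlap, a rise of 0.38 (SE 0.046, edgeR adjusted p = 1.47e-08). Soat1, the enzyme that esterifies cholesterol for storage, had 43.4, 46.3, 46.0 and 38.8 CPM in ad-CRE and 44.5, 43.9, 46.4 and 41.6 CPM in ad-GFP. The groups overlap fully, and the gene did not pass (−0.01 in log2, SE 0.052, edgeR adjusted p = 0.82).

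Over the 30 genes, rises numbered 24 and falls 2, while 4 missed the threshold, where 36.8% of genes tested rose and 36.3% fell. The median change was 0.40 in log2, against 0.00 over all genes tested. In the authors' deposited table, 23 of them have an FDR below 0.05 with a positive log2 fold change and 2 with a negative one. The authors' deposited table lacks a call for Cyp51 (FDR 0.0755) beside Ebp, Insig2, Abcg1 and Soat1.

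Genes around the pathway are given as counts beside the 36.8% of all genes tested that rose and the 36.3% that fell, 73.1% in all. Of 16 genes for SREBP processing and sterol-linked protein degradation, 8 rose and 4 fell, at a median of 0.15, a share called close to that of all genes. Both proteases that cut SREBPs in the Golgi rose, Mbtps2 by 0.73 and Mbtps1 by 0.43, as did Erlin2 by 0.66, an endoplasmic reticulum protein that takes part in sterol-linked protein degradation, and the ATPase Vcp by 0.20. Of 14 tested fatty acid genes driven by SREBPs, 5 rose and 8 fell, at a median of −0.12, against 36.8% higher and 36.3% lower over all genes tested. The desaturase gene Fads1 had −0.99 and malic enzyme Me1 −0.77, whereas the desaturase Scd2 rose by 0.47 and Acly, which makes cytosolic acetyl-CoA, by 0.23.

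Of 8 tested genes for LXR, RXR and other LXR targets, 4 rose and 4 fell (median 0.04), an even split like that of all genes tested (36.8% higher, 36.3% lower). Arl4c rose by 0.97 and the LXRβ gene Nr1h2 by 0.26, and the phospholipid transfer protein gene Pltp had −0.80. Of 16 isoprenoid branch genes, 9 rose and 3 fell, at a median of 0.16, with a share called close to the 73.1% of all genes. The rises include Rabggta at 0.36, and the falls are Pdss1, for the ubiquinone side chain, at −0.86, Nus1, for dolichol, at −0.26, and Rabggtb at −0.25.

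Lipoprotein receptors and sterol carriers numbered 25, of which 8 rose and 12 fell, at a median of −0.08, where 73.1% of all genes tested were called. They include the receptor Lrp1 at −0.33, caveolin gene Cav1 at −0.38 and the oxysterol-binding Osbp at 0.33, while Vps29 did not pass at −0.06. Of 12 tested oxysterol and side-branch enzymes, 1 rose and 7 fell, at a median of −0.17, where 36.8% of genes tested rose and 36.3% fell. The rise was that of Ebpl, a relative of Ebp, at 1.04 from a low level, and the falls include Lbr, a sterol C14 reductase of the nuclear envelope, at −0.37, the cytochrome P450 reductase Por at −0.23 and Cyb5r3 at −0.12. Tm7sf2 and Lbr, which act on the same C14 step, thus moved in opposite directions, with 14.3 ± 0.991 CPM in ad-CRE and 5.67 ± 1.13 CPM in ad-GFP for Tm7sf2 and 26.8 ± 1.22 CPM in ad-CRE and 34.8 ± 1.70 CPM in ad-GFP for Lbr (SD, n = 4 each).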

How the data were processed

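RNA was sequenced in 4 ad-CRE and 4 ad-GFP libraries made with a SMARTer kit, per the labels' protocols. The authors deposited 1 table with a read count and an FPKM value per gene and library, their log2 fold change of mean FPKM (ad-CRE over ad-GFP) and their p-value and FDR, per the file headers. The submitters' processing notes name GRCm38 and mm10. Aligner, counter and strand setting: not given in the sources used here. Each column was matched to a sample by title.

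Counts were tested in R 4.3.3 with edgeR 4.0.16 (filterByExpr, TMM scaling, quasi-likelihood test, group as the only term), with Benjamini-Hochberg adjustment over 13702 genes. CPM values use TMM-scaled library sizes, and the SE is the log2 fold change divided by the square root of F. Count ratios used a pseudocount of 0.5 and an exact permutation test. Coordinates come from GENCODE M21, overlaps from its exons, and promoters from RefSeq. The test was checked on simulated counts with 200 changed genes and the same dispersion for every gene. In the deposited counts 73.1% of genes tested were called, so scaling and error rates with that many changes were not checked. Between replicates of a group, the chi-square of counts over its degrees of freedom was 1.71 to 3.24, above the sampling level of 1.

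The members and gene lists were chosen with earlier results of these data known. Values in every library are given for control, uptake, efflux and transfer genes, for the 4 largest changes in each synthesis arm and for Ebp, which did not pass. Cyp51 was added after its values were seen. In each other list the 3 smallest p-values and the highest FPKM are named, and other genes were chosen after their values were seen. Alternatives were other scalings and filters, DESeq2 1.42.0, limma 3.58.1 (voom on counts, trend on log2 FPKM), stricter thresholds, a replicate block and leaving out each library.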

Additional observations from a re-analysis of the deposited data

Results flagged for a closer look

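Among the 60 groups of 4 libraries examined for the 30 genes, 5 held a library whose gap to its nearest neighbour took up most of the group's range on the log2 CPM scale, where chance gives about 1 in 20 groups. For Acat2, ad-CRE replicate 4 was at 42.3 CPM, the others at 39.4 to 39.7 CPM (gap over range 0.898). For Insig2, ad-CRE replicate 4 was at 47.3 CPM, the others at 43.6 to 44.2 CPM (0.834), and ad-GFP replicate 4 was at 47.5 CPM, the others at 45.1 to 45.5 CPM (0.832). For Ebp, ad-CRE replicate 3 was at 22.1 CPM, the others at 20.6 to 20.9 CPM (0.83). For Fdft1, ad-GFP replicate 4 was at 48.8 CPM, the others at 51.4 to 51.9 CPM (0.841). Leaving out 1 library kept the direction of Acat2 and Fdft1 (0.53 to 0.57 and 0.55 to 0.58).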

How the results depend on the processing

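The rise of the synthesis enzymes held in every setting tried, with 12 to 17 of 18 called higher, and its median moved to 0.56 and 0.61 on the log2 FPKM scale (limma-trend, adding 1 or 0.1), where Dhcr7 moved to 0.53 and 0.58, and to 0.70 to 0.76 with 1 library left out. With a size of at least 0.5 required, 4643 genes passed in all, 14 members were higher and 0 lower. Of the values of single members under other settings, 486 kept their direction and their side of the threshold, 15 lost the call, 1 gained it and 8 turned in sign. The call on Cyp51 was lost in 13 of 17 settings (log2 fold change 0.04 to 0.09). Ebp turned to −0.00468 with total counts only, −0.00198 with the filter of 5 CPM, −0.016 and −0.017 on the FPKM scales and −0.0491 without ad-GFP replicate 1 (−0.0491 to 0.0756 with 1 library left out). Soat1 turned to 0.0016 with no filter, 0.0359 without ad-CRE replicate 4 and 0.01 without ad-GFP replicate 3 (−0.0394 to 0.0359 with 1 library left out). Neither gene passed in any of these.

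Equal replicate numbers showed no sign of pairing. Correlations of deviations were −0.085 to 0.075 for equal numbers and −0.13 to 0.12 for other numbers, and 1 of 4 ad-CRE libraries correlated best with its own number. The labels do not say whether cultures were paired, and correlations this weak cannot settle it. A replicate block gave 9963 genes called, against 10022, and 23 members higher, the call on Cyp51 being lost. For the ratios, 4 pairs allow no p below 0.125, the value of Srebf2 to Srebf1 (0.90) and Insig1 to Insig2 (−0.24) with the replicate block. On FPKM values the differences were 0.92 (adjusted p = 0.0857) and −0.15 (adjusted p = 0.429), and 0.02 for Abca1 to Abcg1. Without 1 library Srebf2 to Srebf1 was 0.88 to 0.94 (adjusted p = 0.0571 without ad-CRE replicate 1 or ad-GFP replicate 2, with an unadjusted exact p of 0.0286, the smallest possible, throughout), Insig1 to Insig2 −0.27 to −0.20 (not passing without ad-CRE replicate 1 or 4 or ad-GFP replicate 2), and Abca1 to Abcg1 0.12 to 0.22, which passed without ad-CRE replicate 4 (exact permutation test, adjusted p = 0.0429). The cause was not tested. Low counts limit Pmvk, Mylip, Tm7sf2 and Mvd, with 363, 419, 428 and 475 reads summed over the 4 ad-GFP libraries.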
